A study of Rattus norvegicus with 6 samples.

Results

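The genes described here are 8 genes of ketone body metabolism and sensing in rat primary astrocytes. They comprise 5 enzymes (Bdh1, Bdh2, Oxct1, Acat1 and Aacs) and 3 receptors (Hcar1, Hcar2 and Ffar3), chosen by name. Earlier results of these data were known when they were chosen. The deposited table has 22608 gene symbols, and 6 of the 8 are listed there under these symbols. The other 2, Hcar1 and Hcar2, are not listed as such. Rows named Gpr81 and Niacr1 are present, and the RefSeq gene table gives these as older names of Hcar1 and Hcar2, so these rows were used for them. With that match all 8 genes have a row.

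Poly(A) RNA was sequenced from 3 control libraries and 3 libraries treated with β-hydroxybutyrate (BHB), all labelled as primary astrocytes from brain. The table's column names give the dose as 2 mM. The sources used here give neither the duration of treatment, nor the age and strain of the rats, nor what the controls received. Whether replicates are separate cultures or animals is unstated, so a p-value here reflects the spread among these samples alone, which may be technical. Levels are FPKM, fragments scaled to transcript length and library depth, which allows genes to be compared with each other.

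BHB is made in the mitochondria, above all in liver, when fatty acid breakdown supplies more acetyl-CoA than the tricarboxylic acid cycle takes up. Tissues that burn it oxidise it to acetoacetate with the dehydrogenase encoded by Bdh1, transfer coenzyme A from succinyl-CoA to acetoacetate with the transferase encoded by Oxct1, and split the acetoacetyl-CoA into acetyl-CoA with the thiolase encoded by Acat1. In brain, neurons and astrocytes both use ketone bodies, and astrocytes can also make them. Aacs encodes a cytosolic enzyme that activates acetoacetate for lipid synthesis, and Bdh2 a cytosolic dehydrogenase of the short-chain family that has been linked to ketone use and to iron handling. BHB also acts outside the cell as a ligand of the Gi-coupled receptor HCAR2, which niacin binds too. HCAR1 is its relative for lactate, and FFAR3 binds short-chain fatty acids and has been reported to respond to BHB.

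The libraries were alike as a whole. Between 12288 and 12312 genes per library reached 1 FPKM, and pairwise Pearson correlations of log2(FPKM + 1) over the 12373 genes tested ran from 0.990 to 0.993. Depth is unknown, since the table holds no counts. In genes below 0.1 FPKM, the commonest ratio between libraries puts the worth of 1 read at 0.853 to 1.01 of that in control 1. The labelled cell type was checked against its markers. Of 11 astrocyte markers all passed the minimum of 1 FPKM in at least 3 libraries, with Fabp7, a glial fatty acid binding protein, at 2319 FPKM in controls and the filament gene Gfap at 1438 FPKM. The glutamate transporter gene Slc1a3 was the only one of the 11 called, at 202.7 and 455.2 FPKM in controls and BHB (limma adjusted p = 1.64e-05). Over all 12373 genes tested 7 were called (0.0566%). Of 8 fibroblast and mural cell markers 6 passed the minimum, led by the smooth muscle gene Tagln at 3030 FPKM in controls. The others that passed were Acta2 (1285), Col1a2 (270.9), Col1a1 (98.8), Pdgfrb (26.8) and Rgs5 (1.26 FPKM, all in controls). Which cells gave this RNA was not tested. The fibroblast genes Lum and Dcn lay under the minimum. They reached at most 0.234 and 0.0324 FPKM, with Dcn above 0 in a single library. All 6 endothelial markers lay under the minimum as well, with Cldn5 listed at 0 in every library. Of 9 neuron markers 6 passed the minimum, led by Stmn2 at 54.75 FPKM in controls. Of 9 oligodendrocyte lineage markers 7 passed, led by Cnp at 47.0 FPKM in controls. The neuron markers summed to 85.86 to 88.69 FPKM in controls and 85.0 to 86.9 FPKM with BHB. The oligodendrocyte lineage markers summed to 92.4 to 97.8 and 95.02 to 99.05 FPKM. The cells behind these values were not tested either.

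The enzymes and receptors differed in level far more than the treatment groups did. The promoters of Oxct1, the most abundant of the 8 genes, and of Hcar1, 1 of the 2 listed at 0, are shown because they hold the most and the fewest CG dinucleotides among these genes (Aacs holds as many as Oxct1). They are the 250 bases before the start in the RefSeq promoter table (rat build GRCr8), written 5′ to 3′ with each CG dinucleotide in capitals. Oxct1 lies on the plus strand and its window is chr2:54963714-54963963. Hcar1 also lies on the plus strand, with the window chr12:38371343-38371592.
Oxct1: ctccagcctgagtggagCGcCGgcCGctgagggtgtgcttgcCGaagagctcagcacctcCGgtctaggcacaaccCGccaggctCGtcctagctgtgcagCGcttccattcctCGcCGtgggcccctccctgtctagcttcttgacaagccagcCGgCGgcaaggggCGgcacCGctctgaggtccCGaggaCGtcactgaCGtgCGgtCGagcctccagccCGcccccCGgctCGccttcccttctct
Hcar1: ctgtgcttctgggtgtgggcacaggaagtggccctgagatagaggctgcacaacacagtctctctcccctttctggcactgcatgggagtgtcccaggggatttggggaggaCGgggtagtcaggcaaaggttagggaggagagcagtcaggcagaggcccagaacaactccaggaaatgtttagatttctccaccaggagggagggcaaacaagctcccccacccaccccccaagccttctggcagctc

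The Oxct1 window holds 22 CG dinucleotides and the Hcar1 window holds 1, although both are rich in G and C (68.8% and 58.8%). The motif searched was CG, which reads the same on both strands. It occurs at least once in 92.5% of the 27457 promoters of this length, whose median is 6. RefSeq promoters were found for 7 of the 8 genes, all but Hcar2. The enzyme genes held 22 (Aacs), 19 (Bdh1), 11 (Acat1) and 9 (Bdh2) in the same window, and Ffar3 held 8. Across the 13941 genes found both in the promoter table and in the deposited table, 86.7% of the genes with 15 or more CG had a mean of at least 1 FPKM. Among genes with 4 or fewer the share was 24.0%, and 38.4% of these were listed at 0 in all libraries. Between these, with 5 to 14 CG, 63.2% reached 1 FPKM and 10.2% were listed at 0. Hcar1 falls in the lowest class, Acat1, Bdh2 and Ffar3 in the middle class and Oxct1, Aacs and Bdh1 in the highest. Every enzyme gene held more CG than Hcar1 and Ffar3, but the counts of Bdh2 (9) and Ffar3 (8) are close together. Hcar2 has no count, so whether enzymes and receptors separate by this count cannot be said. The count is a description of these letters, and whether it bears on transcription in these cells was not tested.

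**Figure D1:**
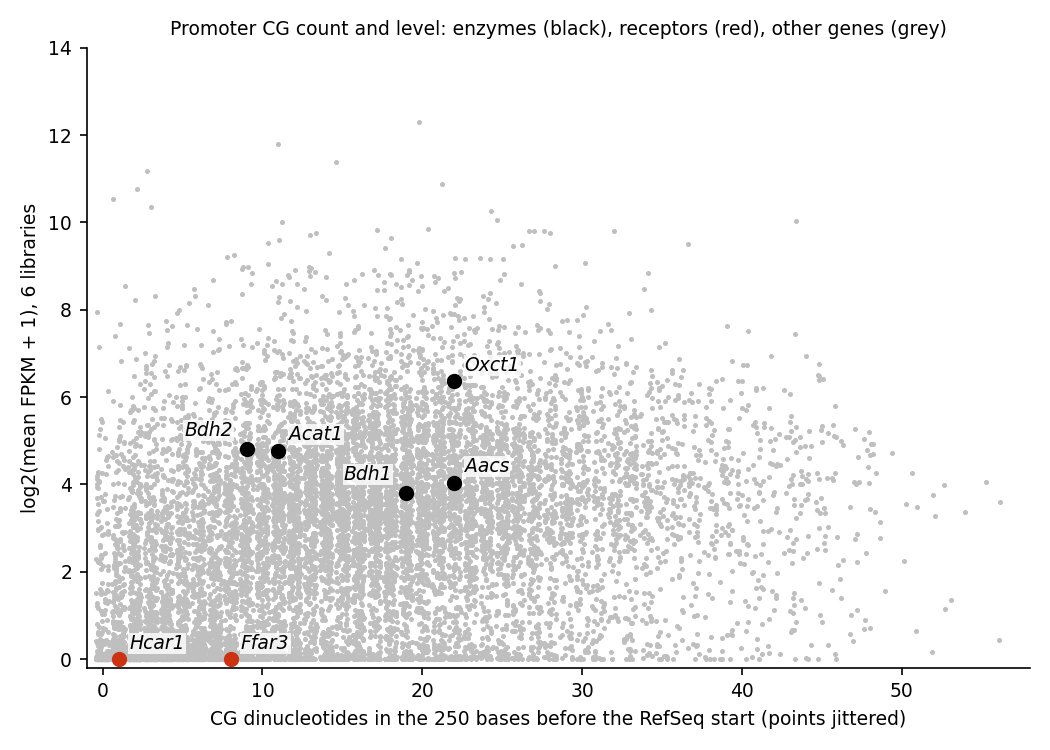
Each point is a gene, with the number of CG dinucleotides in the 250 bases before its RefSeq start on the x axis and log2 of its mean FPKM over the 6 libraries plus 1 on the y axis. Enzymes (black) hold 9 to 22 CG and are all expressed, while Hcar1 (1 CG) and Ffar3 (8 CG, close to the 9 of Bdh2), in red, lie at 0.

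The enzymes of ketone oxidation were all expressed, and Oxct1 was the most abundant of the 8 genes. Oxct1 encodes succinyl-CoA:3-oxoacid CoA transferase, the step that liver lacks and that commits acetoacetate to oxidation. Its level was 83.0, 79.2 and 82.6 FPKM in the controls and 84.7, 81.3 and 78.2 FPKM with BHB. The highest and the lowest library were both BHB libraries, so the groups overlapped over the whole control range. The means were 81.6 ± 2.10 FPKM in controls and 81.4 ± 3.23 FPKM with BHB (n = 3 libraries per group, SD). The log2 fold change (BHB over control, on the log2(FPKM + 1) scale) was -0.0046, with a 95% interval of -0.11 to 0.10 (limma adjusted p = 0.993). In terms of FPKM + 1, that interval runs from 0.927-fold to 1.07-fold. The sign turned in 3 of the 6 fits that left out a library, between -0.033 without BHB 1 and 0.023 without BHB 3. Oxct1 stood above 93.7% of the genes tested in mean level.

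Bdh1 encodes the mitochondrial D-β-hydroxybutyrate dehydrogenase, the enzyme that interconverts BHB and acetoacetate and so the first enzyme of BHB oxidation. Controls held 12.9, 13.0 and 12.7 FPKM, and BHB libraries 13.3, 13.8 and 12.7 FPKM. BHB 1 and BHB 2 lay above every control, while BHB 3 lay below all of them. The means of 12.8 ± 0.143 and 13.3 ± 0.577 FPKM (n = 3 libraries per group, SD) differed by 0.04 on the log2 scale (limma adjusted p = 0.930, 95% interval -0.08 to 0.17). The difference was 0.015 without BHB 2 and 0.073 without BHB 3, and neither fit called it. Within a library, Oxct1 was 5.88 to 6.50 times as abundant as Bdh1 (mean 6.25 ± 0.238, SD, n = 6). The ratio was 6.35 ± 0.222 in controls and 6.14 ± 0.238 with BHB (n = 3 libraries per group, SD; exact two-sided permutation p = 0.3).

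Acat1, the mitochondrial acetoacetyl-CoA thiolase that closes the oxidation of ketone bodies and opens their synthesis, showed the widest spread among the 5 enzymes. Its controls were close together at 24.8, 25.9 and 25.6 FPKM, and the BHB libraries held 29.2, 24.3 and 28.1 FPKM. BHB 1 and BHB 3 thus lay above all controls and BHB 2 below all of them. The means were 25.4 ± 0.569 and 27.2 ± 2.59 FPKM (n = 3 libraries per group, SD), a ratio of 1.07. On the log2 scale the difference was 0.09, which did not pass (limma adjusted p = 0.901, 95% interval -0.07 to 0.25). Single libraries moved it. It was 0.17 without BHB 2 (95% interval 0.03 to 0.30, which excludes 0) and 0.04 without BHB 1, and neither fit called it. The coefficient of variation of Acat1 over the 6 libraries was 7.34%, near the middle of all genes tested (above 53.2% of them).

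The cytosolic enzymes varied least. Bdh2 stood at 26.6, 26.7 and 28.0 FPKM in controls and 27.3, 27.1 and 27.5 FPKM with BHB, so that the BHB libraries all lay inside the control range. Its means were 27.1 ± 0.737 and 27.3 ± 0.188 FPKM (n = 3 libraries per group, SD), and its log2 fold change was 0.0092 (limma adjusted p = 0.985, 95% interval -0.09 to 0.11). That sign turned without control 1, without control 2 and with the libraries scaled to equal sums (-0.0030, -8.45e-05 and -0.0071).

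Aacs, the acetoacetyl-CoA synthetase of the cytosol, held 15.6, 15.2 and 15.1 FPKM in controls and 15.8, 15.5 and 15.6 FPKM with BHB. Only control 1 reached into the BHB range. The means were 15.3 ± 0.229 and 15.6 ± 0.145 FPKM (n = 3 libraries per group, SD; log2 fold change 0.03, limma adjusted p = 0.946, 95% interval -0.08 to 0.14). The coefficients of variation over the 6 libraries, 1.60% for Aacs and 1.80% for Bdh2, exceeded those of 0.574% and 0.865% of the genes tested. Oxct1 (3.00%) and Bdh1 (3.37%) varied little too, above 6.25% and 9.39% of those tested.

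Among the 5 enzymes, 0 of 5 were called, where the fit called 7 of 12373 genes (0.0566%). None had an unadjusted p under 0.05 (5.59% of all genes tested did), and in none did the groups separate (10.9% of all). Their median log2 fold change was 0.03 beside 0.0029 over all genes tested, with 4 above 0 and 1 below (6371 and 6002 of all). Exact two-sided permutation tests of the group means gave p = 0.2 for Aacs, 0.4 for Bdh1 and Acat1, 0.8 for Bdh2 and 1.0 for Oxct1, where the smallest p that 3 against 3 allows is 0.1. The 95% intervals of the 5 enzymes together span 0.927-fold to 1.19-fold in FPKM + 1. A difference that small could not be told from 0 with these libraries.

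**Figure D2:**
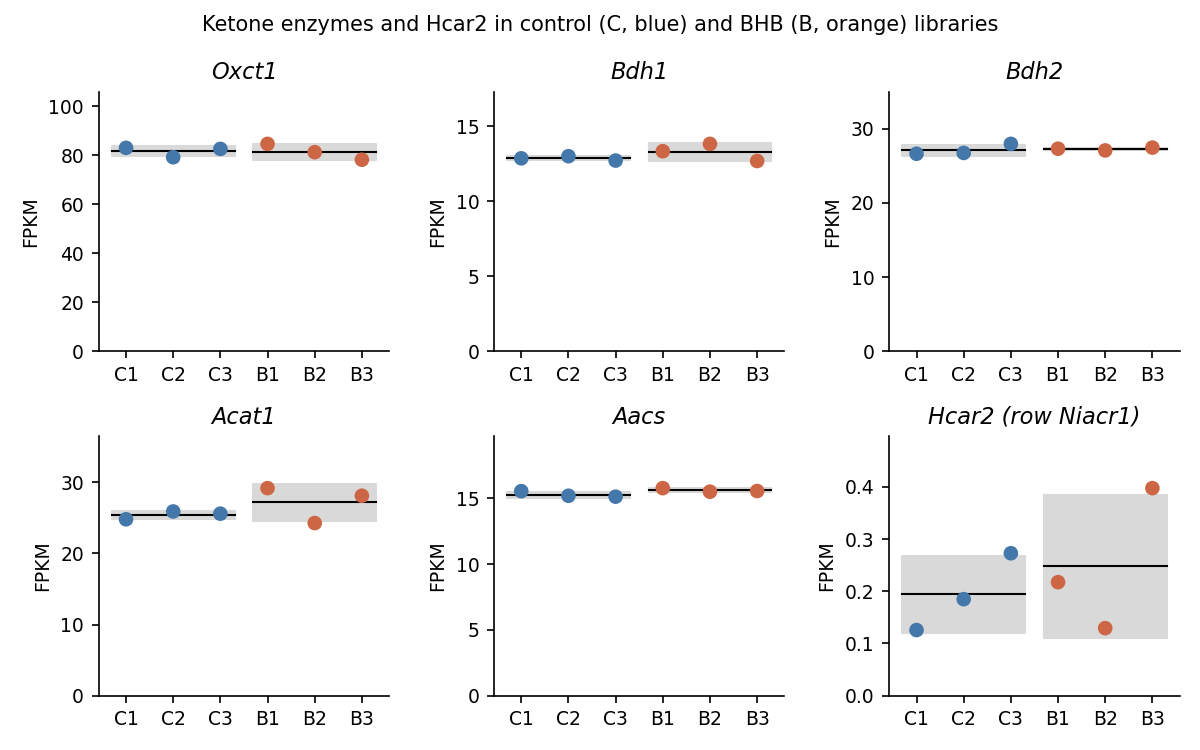
FPKM of the 5 enzymes and Hcar2 in each library, controls (C1 to C3) in blue and BHB libraries (B1 to B3) in orange, with the group mean (line) and SD (grey band) on axes that start at 0. Oxct1 runs from 78.2 to 84.7 FPKM with both extremes in BHB libraries, and Hcar2 stays under 0.4 FPKM.

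The receptors were at the other end of the scale. Hcar2, the BHB and niacin receptor, was listed at 0.126, 0.185 and 0.273 FPKM in controls, and at 0.218, 0.129 and 0.398 FPKM with BHB. The ranges overlapped, and the highest value was in BHB 3. None of the libraries reached 1 FPKM, so Hcar2 was not tested in the main fit. Its means were 0.195 ± 0.0741 and 0.248 ± 0.137 FPKM (n = 3 libraries per group, SD). The difference of mean log2(FPKM + 1) was 0.06 (exact two-sided permutation p = 0.6), and it was -0.025 without BHB 3. A fit without the minimum, over 17669 genes, gave the same difference with a 95% interval of -0.14 to 0.26 (limma adjusted p = 0.933). This scale understates changes of genes so far under 1 FPKM. With a pseudocount of 0.1 the difference was 0.20 (exact two-sided permutation p = 0.6).

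Hcar1, the lactate receptor, and Ffar3 were listed at 0 in all 6 libraries. They shared this with 4939 of the 22608 rows. The table gives no count behind a 0, so no upper limit can be set, and no fold change was computed. The RefSeq table lists Hcar1 and Hcar2 as neighbours on chromosome 12. How alike the sequences of Hcar1 and Hcar2 are was not compared. The sources used here do not say how reads that match several genes were assigned.

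Hcar2 is known as a gene of myeloid cells, microglia among them, and the cultures held microglial RNA. Of 13 microglia and macrophage markers all were in the table and 12 passed the minimum. Their summed level was 78.6 to 92.1 FPKM in controls and 81.4 to 84.2 FPKM with BHB. The most abundant was Fcer1g, an Fc receptor subunit, at 21.0 and 18.3 FPKM. The colony-stimulating factor receptor gene Csf1r stood at 6.48 and 6.55 FPKM, P2ry12 stood at 0.547 and 0.493 FPKM, and none was listed at 0. In 3 of the 12 tested the groups did not overlap, as in 10.9% of all genes tested. Cx3cr1 was lower with BHB (5.84 and 4.66 FPKM), while Tmem119 (2.525 and 3.107 FPKM) and Aif1 (4.87 and 5.22 FPKM) were higher. None of the 12 was called (lowest limma adjusted p = 0.881), where 0.0566% of all genes tested were. By library the marker sum was 91.44, 92.05 and 78.64 FPKM in controls 1 to 3 and 83.25, 81.44 and 84.19 FPKM in BHB 1 to 3. Hcar2 was highest in BHB 3 and lowest in control 1. The part of microglia in the Hcar2 value was not tested. In bulk RNA, fewer cells of a type and less RNA per cell cannot be told apart.

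In mean FPKM over the 6 libraries the order was Oxct1 (81.5), Bdh2 (27.2), Acat1 (26.3), Aacs (15.5), Bdh1 (13.1) and Hcar2 (0.221), followed by Hcar1 and Ffar3 at 0. Bdh2 and Acat1 did not differ beyond their spread, since Bdh2 was higher in 4 of 6 libraries and the ranges overlapped. The other neighbours down to Hcar2 had ranges that did not overlap. Aacs exceeded Bdh1 by 1.12 to 1.23 times within each library. Hcar2 was 31.8 to 107 times less abundant than Bdh1.

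**Figure D3:**
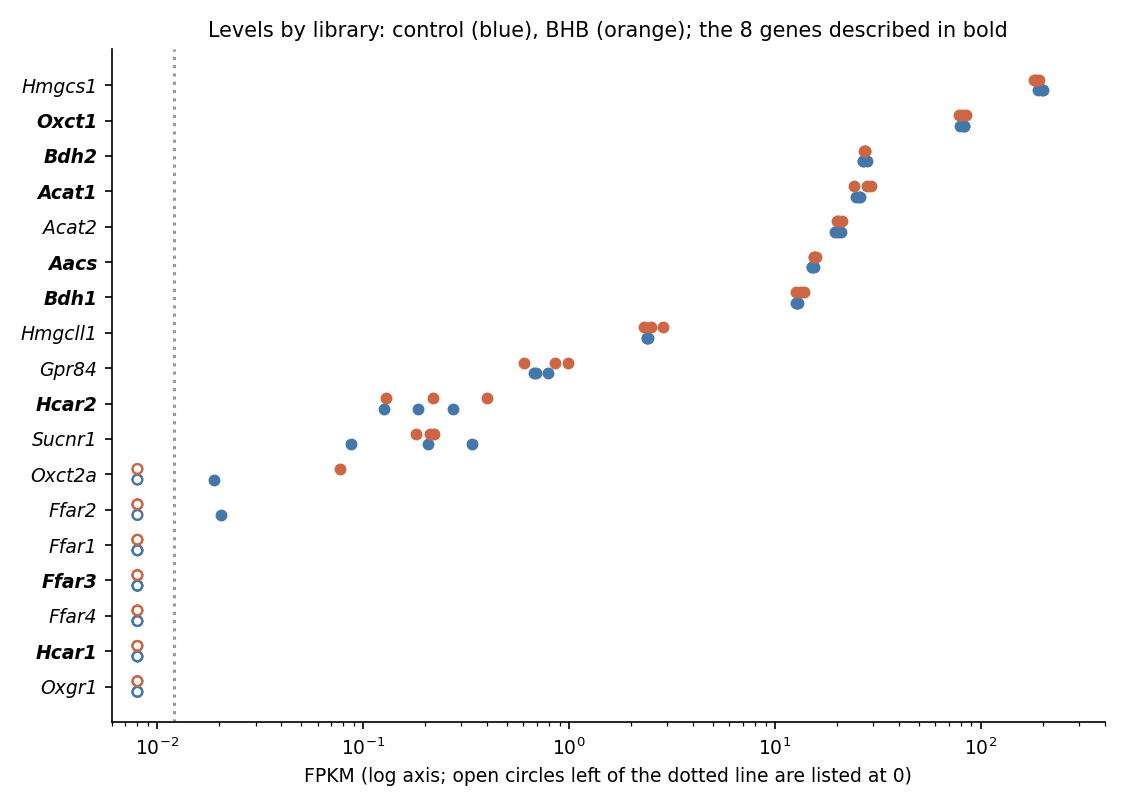
FPKM in each library (control blue, BHB orange) on a log axis for the 8 genes described (bold), other enzymes of ketone metabolism, and other receptors of small carboxylic and fatty acids; open circles are values listed at 0. The 5 enzymes lie between 12.7 and 84.7 FPKM, and each receptor shown lies under 1 FPKM.

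Other enzymes around ketone use were tested beside these. The most abundant was Hmgcs1, the cytosolic HMG-CoA synthase of cholesterol synthesis, at 195.9 ± 6.27 and 185.9 ± 4.97 FPKM (n = 3 libraries per group, SD; log2 fold change -0.08, limma adjusted p = 0.890). Hmgcll1, a lyase-like gene, had means of 2.41 ± 0.0187 and 2.56 ± 0.279 FPKM (n = 3 libraries per group, SD). The cytosolic thiolase gene Acat2 stood at 20.3 and 20.5 FPKM. The table has a further row for a similar gene, Acat2l1, so reads may be split between the 2. The transferase gene Oxct2a, known from testis, was above 0 in control 2 and BHB 3 alone, at 0.0188 and 0.0775 FPKM, and Oxct2b was not found. Of the 5 genes of this list 4 were in the table, 3 were tested and none was called (0.0566% of all genes tested were). Of these 3, 2 had a log2 fold change above 0 (6371 of all 12373 genes tested did), and the median was 0.01.

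Within a library, Oxct1 was 2.78 to 3.35 times as abundant as Acat1, with a mean ratio of 3.21 ± 0.146 in controls and 3.01 ± 0.299 with BHB (n = 3 libraries per group, SD; exact two-sided permutation p = 0.4). Acat1 exceeded Acat2 by 1.20 to 1.45 times (p = 0.4 in the same exact test). In all, 6 such ratios were compared between groups, and the lowest exact permutation p was 0.3 (0.6 after Benjamini-Hochberg adjustment over the 6).

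The enzymes that supply acetyl-CoA and succinyl-CoA around this pathway were all tested. Of these 0 of 10 were called, where 7 of 12373 genes tested were (0.0566%), so few calls are to be had in a list of this size. Their median log2 fold change was 0.02, with 6 above 0, as were 6371 of the 12373 genes tested. Citrate synthase, Cs, which takes up the acetyl-CoA, was the most abundant and had the smallest p. Controls held 115.8, 116.4 and 114.1 FPKM and BHB libraries 118.1, 124.9 and 122.3 FPKM. All BHB libraries lay above all controls, which holds for 1 of these 10 genes and, in either direction, for 10.9% of all genes tested. On the log2 scale the difference was 0.08, which did not pass (limma adjusted p = 0.890, 95% interval -0.01 to 0.17). The value was 0.06 without BHB 2 and 0.10 without BHB 1 (95% interval 0.0005 to 0.195, limma adjusted p = 0.685).

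None of the 6 other receptors of small carboxylic and fatty acids reached the minimum. Gpr84, a receptor of medium-chain fatty acids on myeloid cells, was the highest at 0.718 ± 0.0624 and 0.816 ± 0.195 FPKM (n = 3 libraries per group, SD), followed by the succinate receptor gene Sucnr1 at 0.211 and 0.204 FPKM. Ffar2, which like Ffar3 encodes a receptor of short-chain fatty acids, was above 0 in control 3 only. Ffar1, Ffar4 and Oxgr1 were listed at 0 in all libraries.

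HCAR2 and FFAR3 signal through Gi proteins, whose genes, with those of the arrestins, ranged widely in RNA level. Gnai2, the most abundant Gi alpha subunit gene here, averaged 457.6 ± 20.6 FPKM in control and 460.8 ± 18.5 FPKM in BHB libraries (n = 3 libraries per group, SD). Gnai3 stood at 79.1 and 78.0 FPKM, Gnao1 at 40.4 and 39.4 FPKM, Gnai1 at 16.5 and 16.4 FPKM and Gnaz at 1.77 and 1.86 FPKM. The β-arrestin genes Arrb1 and Arrb2, whose products bind active receptors, stood at 4.29 and 3.58 FPKM and at 11.9 and 10.9 FPKM. All 7 genes of this list were tested and none was called (0.0566% of all genes tested were). Arrb1 had the smallest p of the list (log2 fold change -0.19, limma adjusted p = 0.895). The value ran from -0.33 without control 1 (95% interval -0.57 to -0.09) to -0.061 without control 3, and no fit that left out a library called it (lowest limma adjusted p = 0.747).

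Of 8 regulators of ketogenesis, 2 reached the minimum and neither was called (0.0566% of all genes tested were). Cpt1a, the carnitine transferase that admits fatty acids to mitochondria, was the most abundant at 51.4 ± 0.983 and 51.2 ± 0.731 FPKM (n = 3 libraries per group, SD). Sirt3, a mitochondrial deacetylase, stood at 8.20 ± 0.936 and 9.52 ± 1.38 FPKM (n = 3 libraries per group, SD), which is 0.19 on the log2 scale (limma adjusted p = 0.890, 95% interval -0.07 to 0.44). It ran from 0.11 without BHB 2 to 0.30 without BHB 1 (95% interval 0.07 to 0.52, limma adjusted p = 0.685). The liver factor genes Foxa2 and Hnf4a and the fasting hormone gene Fgf21 were listed at 0 in all libraries. These 3 were named after their values were seen.

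**Figure D4:**
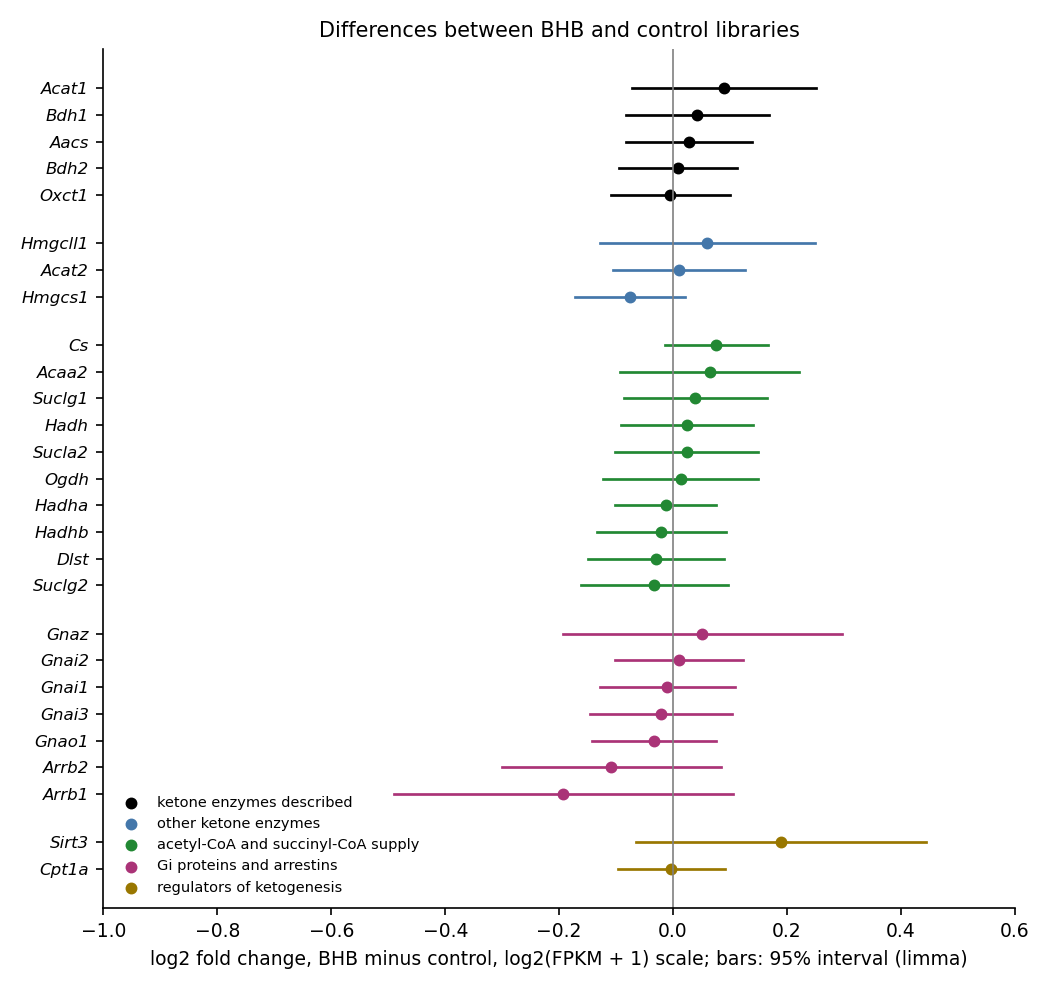
Log2 fold change of BHB over control on the log2(FPKM + 1) scale (points) with 95% intervals from limma (bars) for the 5 enzymes and the tested genes of 4 related lists. Every interval shown includes 0, and those of the 5 enzymes lie between -0.11 and 0.25.

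The gene most like each enzyme across the 6 libraries, by Pearson correlation of log2(FPKM + 1) among the other genes tested, was Sclt1 for Oxct1 (r = 0.987), Cystm1 for Bdh1 (0.983), Dnph1 for Acat1 (0.993), Siah1 for Bdh2 (0.991) and Rac3 for Aacs (0.992). Each is the highest of the correlations with all other genes tested, over 6 points that share their libraries, and between 10 and 24 genes reached 0.95 for each enzyme. They describe these libraries only.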

How the data were processed

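Poly(A) RNA of 3 control and 3 BHB libraries was measured. The authors deposited 1 table of FPKM values with a column per library. The submitters' processing notes name bcl2fastq 2.0, HISAT2, StringTie, DESeq2 and the build rn6, without roles or settings. The sources used here give neither the annotation, nor strandedness, nor how transcripts were combined into genes. Libraries were grouped by the treatment in their titles, and table columns were matched to them by treatment and number.

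No scaling was added. Genes reaching 1 FPKM in 3 or more of the 6 libraries were tested as log2(FPKM + 1) with limma 3.58.1 in R 4.3.3 (lmFit, eBayes with an intensity trend; two-sided, Benjamini-Hochberg over the 12373 genes tested, threshold 0.05). The fit was also run on simulated data, drawn as normal noise with the spreads that the fit itself estimated. Such data meet the model's assumptions, so the run cannot show whether the model suits these libraries. Single values were compared by exact two-sided permutation (scipy 1.17.1). The members and lists were chosen with earlier results of these data known. The 8 members were always named. Of each related list the most abundant gene, that with the smallest p and, for lists of up to 7 genes, any gene were named, with the gene most correlated with each tested member and, of cell type lists, the most abundant gene and those at 0. A few list genes are not reported here and are left out of the counts. Markers named besides these, and Acat2l1, were picked after their values were seen. Symbols, older names and promoters come from RefSeq tables of GRCr8, used for no coordinates in the deposited data. Alternatives covered pseudocounts of 0.1 and 0.5, the minimum (none or 5 FPKM), scaling, the eBayes trend, array weights, a replicate block and leaving out each library.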

Additional observations from a re-analysis of the deposited data

How the results depend on the processing

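No member was called under any alternative run, with the lowest adjusted p between 0.841 (array weights) and 1.0 (without BHB 2). The 7 genes called over all those tested became 4 without the eBayes trend and 2 with the replicate block, which leaves fewer residual degrees of freedom. The cause of either change was not tested. The deviations of same-numbered libraries from their group means correlated at -0.0899, 0.164 and -0.151, so the numbers were not taken as pairs. The match of control 1 with BHB 3 (0.186) and of control 3 with BHB 1 (0.203) is given by no label and was not used. Leaving out a library gave 5 to 10 genes. With equal sums, the log2 fold change turned for Acat2 (-0.00503), Bdh2 (-0.00714) and Gnai2 (-0.00661). It turned for Gnai2 (-0.00454) with quantile normalization and for Gnai1 (0.00135) with array weights. Without a library, the log2 fold change ran from -0.0108 to 0.0343 for Acat2, -0.00304 to 0.0309 for Bdh2, -0.0332 to 0.0234 for Oxct1, -0.0137 to 0.0121 for Cpt1a, -0.0403 to 0.0136 for Gnai1, -0.0275 to 0.0437 for Gnai2, -0.0661 to 0.0150 for Gnai3, -0.0348 to 0.141 for Gnaz and -0.00037 to 0.110 for Hmgcll1. The difference for Hcar2, added after seeing the data, ran from -0.0249 to 0.129. Over single genes and alternatives, 252 values kept their sign and their call and 23 turned. The filter settings, the eBayes trend and the replicate block cannot change a log2 fold change. Under these settings the sign was kept by construction, so the 252 overstates how stable the signs are. Depth is unknown, which limits what a level under 1 FPKM or a listed 0 can show.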
